A study of Mus musculus with 20 samples.

Results

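The 35 genes described here encode the enzymes of pyruvate oxidation and the tricarboxylic acid (TCA) cycle, measured as mRNA in the heart apex of mice with and without cardiac light chain (AL) amyloidosis. They were chosen by gene symbol from general knowledge of the pathway with earlier results of these data known, so their number and direction of change are given as a description. The choice used no cutoff on a measured value. All 35 symbols were found among the 25308 genes of the table, and all 35 were among the 14477 genes tested.

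RNA was sequenced from 20 mice, 9 AL, 4 LS and 7 Ctrl. All of them carried the DH-LMP2A alleles, with which plasma cells develop in the absence of Ig heavy chains. Ctrl mice (labelled DH) carried nothing further, while LS and AL mice (labelled DH-lambdaS) also carried a human λ light chain gene inserted at the mouse Ig kappa locus, so that the light chain is made by plasma cells and reaches the heart from the blood. AL mice had been induced to form amyloid (in the study's methods, by a single intravenous injection of the variable domain, as fibrils or in soluble form) and had deposits in the heart. LS mice were not induced and had none. The study describes its controls as age-matched, and no age of a single mouse was used here. Both sexes were present, since Xist exceeded 100 CPM in 3 AL, 2 LS and 3 Ctrl mice. All of these were in the first sequencing run, as 3 of 7 AL, 2 of 4 LS and 3 of 4 Ctrl mice. No mouse of the second run exceeded 0.20 CPM, so that sex was uneven between runs and groups.

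Pyruvate enters the mitochondrion through a carrier and is turned into acetyl-CoA by the pyruvate dehydrogenase complex, which kinases switch off by phosphorylation and phosphatases switch on again. Acetyl-CoA condenses with oxaloacetate to citrate, and the cycle then regenerates oxaloacetate while it delivers reducing equivalents to the respiratory chain. The heart covers most of its energy need in this way, mainly from fatty acids and to a smaller part from glucose and lactate, and pyruvate oxidation is the step where the balance between these fuels is set.

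Total counts per mouse lay between 7867642 and 62668146. The low totals belonged to the second sequencing run, made up of 2 AL and 3 Ctrl mice, whereas the first run held 15 mice with all LS mice among them. AL9, a mouse of the second run, stood apart with a summed level of fibroblast marker genes of 4705 CPM (TMM-normalized counts scaled to library size), against at most 1736 CPM in the AL mice of the first run, and AL1 stood apart with adipocyte genes (Adipoq at 10.01 CPM, at most 1.24 CPM in every other mouse). The counts, and the genes whose call was lost without these mice, are also given without them. All 12 cardiomyocyte marker genes, such as Myh6, were detected in every mouse, the lowest value being 1007 CPM, and the tissue was thus the labelled one. Alb, a liver gene, reached 215 CPM in Ctrl and 113 CPM in LS mice, against at most 21.7 CPM in AL mice, and 12 of 14 hepatocyte marker genes passed as lower in AL than in Ctrl mice (edgeR, FDR under 0.05), with log2FC of -5.59 for Mup3, -4.90 for Fgb, -4.88 for Alb, -4.74 for Fgg, -4.51 for Fga and -4.43 for Apoa2. The high Ctrl values of Alb were all in the first run. In the second run Alb was at most 0.10 CPM in Ctrl mice, 0.71 CPM in AL8 and 0.09 CPM in AL9. The summed hepatocyte markers of that run were 34.6 to 43.4 CPM in Ctrl mice, 34.3 CPM in AL8 and 170 CPM in AL9. Of the markers of other cells, Abcc9 from the list of mural cells was called lower (-0.84), and Acta2 of the same list, Lyz2 of the macrophage list and Trac of the lymphocyte list were called higher (0.88, 0.61 and 1.18). Trac was low, with means of 0.35 CPM in AL and 0.17 CPM in Ctrl mice. The other genes of these lists were not called and went both ways, although C1qb of the macrophage list passed as higher (0.54, edgeR FDR 0.0402). Their log2FC ran from -0.10 (Myh11) to 0.38 (Cspg4) for mural cells. They ran from -0.15 (Mrc1) to 0.70 (Cd68) for macrophages and from -0.36 (Cd3e) to 0.26 (Cd79a) for lymphocytes. The part of these cells in the results was not tested, and no covariate was fitted for them. With hepatocyte markers as a covariate, 13 pathway genes passed as lower and 1 as higher against Ctrl, beside 20.3% of all genes. Against LS 13 passed as lower and 0 as higher in that fit, beside 20% of all genes. Idh2 against Ctrl and Dlst against LS no longer passed there.

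Transcripts of the pathway were lower in hearts with amyloid. Between AL and Ctrl mice 32 of the 35 genes had a negative and 3 a positive log2 fold change (log2FC), and 13 passed the test (edgeR's quasi-likelihood test, FDR under 0.05) as lower and 1 as higher. Over all genes tested, 15.4% passed as lower and 10.7% as higher. The median log2FC of the 35 genes was -0.19, and -0.12 without AL9, beside 0.01 for all genes tested. Against LS mice, 31 genes were lower and 4 higher, with a median of -0.23, and 13 passed as lower (background 13.6%) and 0 as higher (background 9.78%), although 1 gene, Pdk3, was higher at an unadjusted p under 0.05 and passed with DESeq2. Between LS and Ctrl mice 0 of the 35 genes passed by edgeR or by DESeq2. There, 1 gene had an unadjusted p under 0.05, the log2FC lay between -0.30 (Pdk4) and 0.27 (Pdp1) with a median of 0.07, and the background was 0.00691% of all genes higher and 0.0138% lower. Both comparisons with AL mice use the same AL mice and so are not independent of each other.

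**Figure D1:**
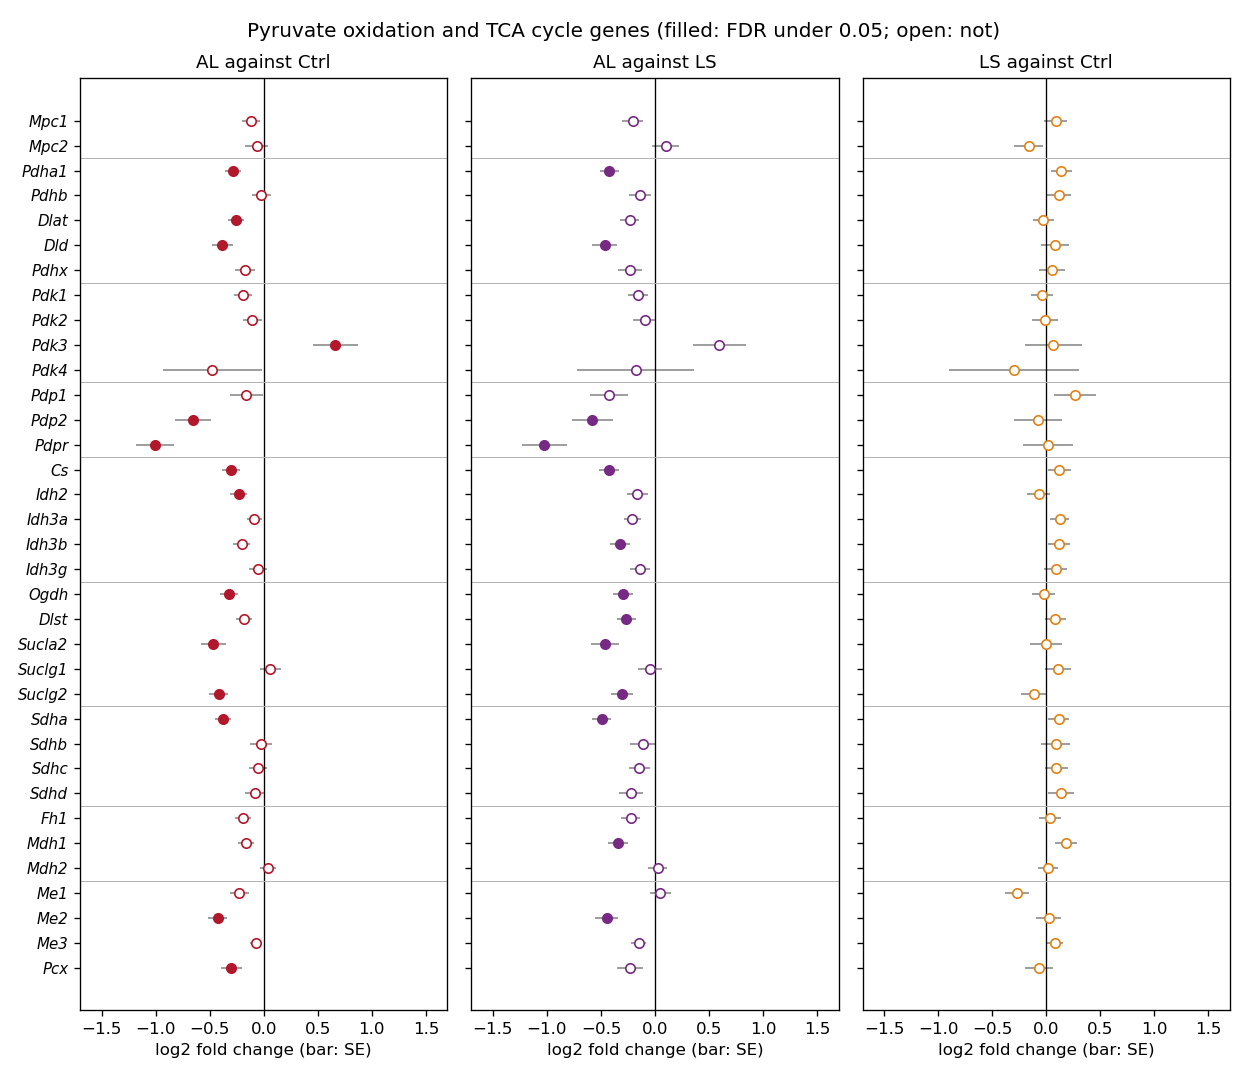
Log2 fold change of each of the 35 genes (points) with its standard error (bars) in the 3 comparisons, ordered by role from the pyruvate carrier at the top to malic enzymes and pyruvate carboxylase at the bottom, filled where the FDR was under 0.05. The AL columns lie mostly left of 0, with Pdpr farthest left at -1.01 and -1.02, and no point of the LS against Ctrl column is filled.

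The differences were small for most genes. With the added requirement of an absolute log2FC of at least 0.58, a fold change of 1.5, 2 genes were called lower (Pdpr and Pdp2) and 1 higher (Pdk3) against Ctrl, and 1 lower (Pdpr) against LS, where 7.81% and 8.9% of all genes were called in either direction (LS against Ctrl 0.0207%). In 4 genes (Pdpr, Sucla2, Suclg2 and Sdha) every AL mouse was lower than every Ctrl mouse, as in 1.51% of all genes. No gene of the pathway was higher in every AL mouse, which was seen in 0.484% of all genes. Against LS, 12 genes were lower in every AL mouse (8.25% of all genes) and none higher (5.24% of all genes). Summed over the 35 genes, transcripts took 12467 to 18838 CPM in AL mice, 19613 to 21773 CPM in LS mice and 17181 to 20855 CPM in Ctrl mice, so that AL and LS mice did not overlap while AL and Ctrl mice did. In bulk tissue, fewer cells of a type and less RNA per cell cannot be told apart.

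**Figure D2:**
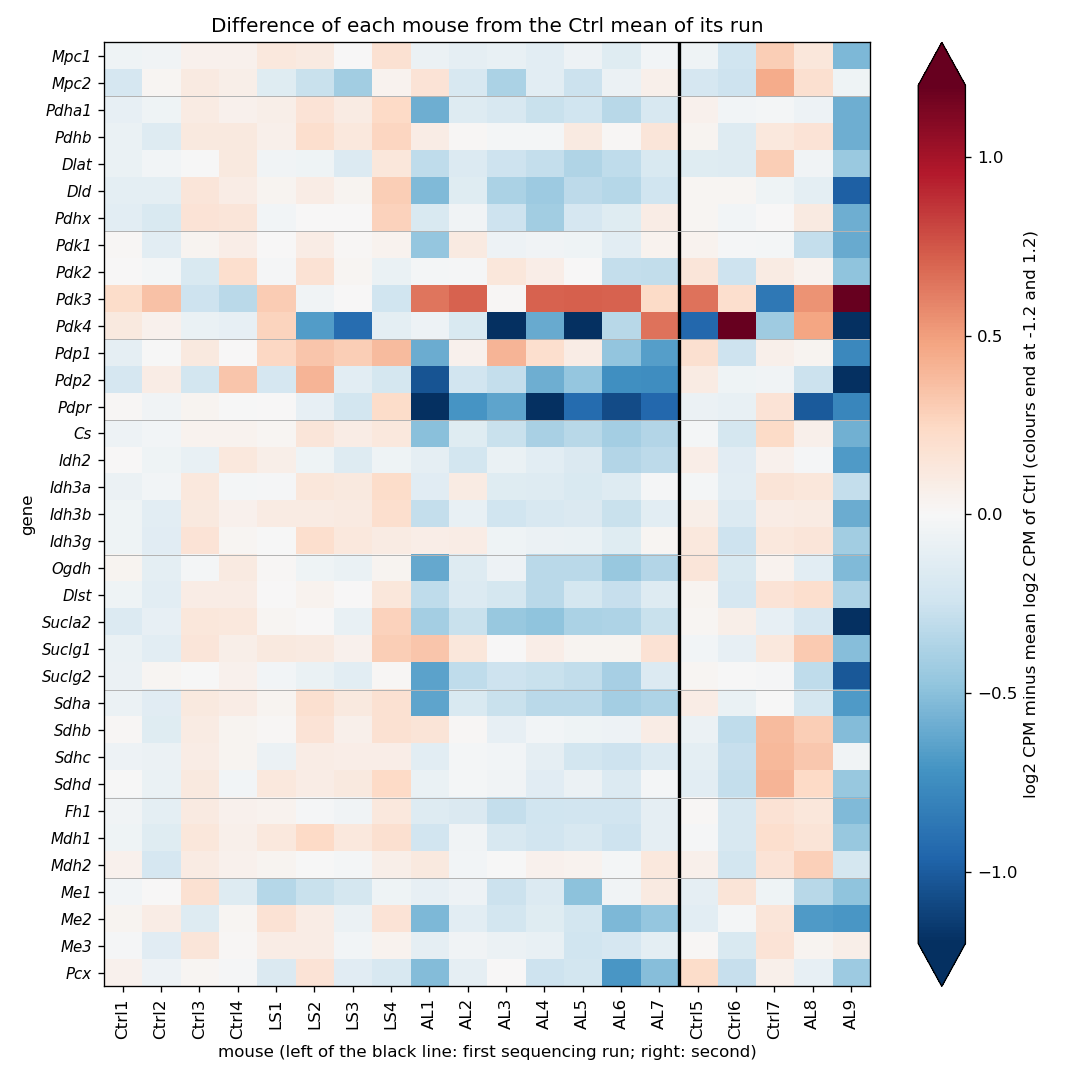
Difference of each mouse (columns) from the mean log2 CPM of the Ctrl mice of its own sequencing run for the 35 genes (rows), blue where lower and red where higher. The 7 AL mice of the first run are pale to dark blue in most rows, Pdk3 is on the red side in all 9 AL mice, AL8 shows little colour outside a few rows and AL9 is blue in 33 of 35 rows.

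Levels differed widely between the genes. Per kilobase of the principal transcript, Mdh1 and Idh2 were the most abundant in Ctrl mice at 999.9 ± 120 and 989.8 ± 142 CPM per kilobase (mean ± SD, n = 7), which did not differ beyond their spread, followed by Mdh2 at 690 ± 68.8. Pyruvate dehydrogenase and citrate synthase were close to each other (Pdha1 at 440 ± 51.4 and Cs at 408 ± 42.6). Among the regulators of pyruvate dehydrogenase, Pdk4 was at 301 ± 175, Pdpr at 20.9 ± 1.73, Pdp1 at 8.79 ± 0.93, Pdp2 at 5.30 ± 0.87 and Pdk3 at 0.63 ± 0.22 CPM per kilobase, the lowest of the 35.

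Of the phosphatase subunits, Pdpr changed most. Pdpr encodes the regulatory subunit of pyruvate dehydrogenase phosphatase and lies on chromosome 8 (GRCm38 chr8:111094630-111137074, plus strand). It was at 90.5, 108 and 111 CPM (lowest, median and highest) in Ctrl mice, at 109, 101, 93.1 and 126 CPM in LS1 to LS4, and at 18.2, 55.9 and 69.8 CPM in AL mice. Every AL mouse was thus below every LS and Ctrl mouse, and AL1, at 18.2 CPM, was far below the next AL mouse at 46.04 CPM. The log2FC was -1.01 ± 0.18 (SE) against Ctrl (edgeR, FDR 0.000735, lower in 9 of 9 AL mice than the Ctrl mean of their run) and -1.02 ± 0.21 against LS (FDR 0.00213). Without AL1 it was -0.90 and -0.89. The fall was -1.05 in the first run and -0.86 in the second, and it kept its side of the threshold against Ctrl under all 36 alternatives, with an FDR of at most 0.0205. A non-coding gene, 9430091E24Rik, overlaps Pdpr on the other strand.

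Pdp2 encodes one of the 2 catalytic subunits and followed. Its values were 23.4, 32.2 and 35.7 CPM in Ctrl mice, 23.7, 36.3, 25.1 and 23.6 CPM in LS1 to LS4 and 9.98, 18.2 and 27.9 CPM in AL mice, where AL9 was lowest and AL8 highest. The AL range overlapped both other groups at its upper end, and the log2FC was -0.66 ± 0.17 against Ctrl (edgeR, FDR 0.00885) and -0.58 ± 0.19 against LS (FDR 0.0370). The call against LS was lost in 12 of the 36 alternatives, among them those without AL1, AL4, AL6, AL7, LS2 or LS3, with log2FC of -0.62 to -0.41. Pdp1, the other catalytic subunit, had a log2FC of -0.16 ± 0.15 against Ctrl and -0.43 ± 0.17 against LS (edgeR, FDR 0.455 and 0.0808).

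Of the kinases that act against these phosphatases, 1 of 4 passed against Ctrl. Pdk1 and Pdk2 had log2FC of -0.19 ± 0.08 and -0.11 ± 0.09 against Ctrl (edgeR, FDR 0.0818 and 0.418). Pdk3, the least abundant of the 4, was the 1 gene of the pathway that rose. It was at 0.69, 1.47 and 2.07 CPM in Ctrl mice, at 1.56, 1.22, 1.26 and 1.06 CPM in LS mice and at 1.27, 2.08 and 3.53 CPM in AL mice, the highest being AL9. The groups overlapped, and its log2FC of 0.66 ± 0.21 (edgeR, FDR 0.0261 against Ctrl) rested on low counts, since the lowest count of a pathway gene in any mouse was 9. Without AL9 it was 0.53, without Ctrl3 0.62 and without Ctrl4 0.60, and it then no longer passed, nor did it in the first run alone (FDR 0.0531).

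Pdk4, the kinase that fasting and fatty acids are known to induce, varied more than any other of the 35 genes in AL and LS mice. It ranged from 143 to 2344 CPM in AL mice, from 792 to 1799 CPM in LS mice and from 182 to 1617 CPM in Ctrl mice. In the first run the 4 Ctrl mice lay close together, between 1399 and 1617 CPM, and the low mice were AL3 and AL5 (199 and 170 CPM). In the second run Ctrl5, Ctrl6 and Ctrl7 were at 182, 909.6 and 261 CPM, and AL8 and AL9 at 487 and 143 CPM, so that all low Ctrl mice belonged to the second run. The log2FC was -0.48 ± 0.46 against Ctrl and -0.18 ± 0.54 against LS (edgeR, FDR 0.470 and 0.847), so that at this spread neither a fall nor a rise could be told. The coefficient of variation of Pdk4 in the first run was 69.1% in AL, 37.1% in LS and 7.03% in Ctrl mice, beside medians of 8.18%, 5.62% and 7.19% for the other genes.

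**Figure D3:**
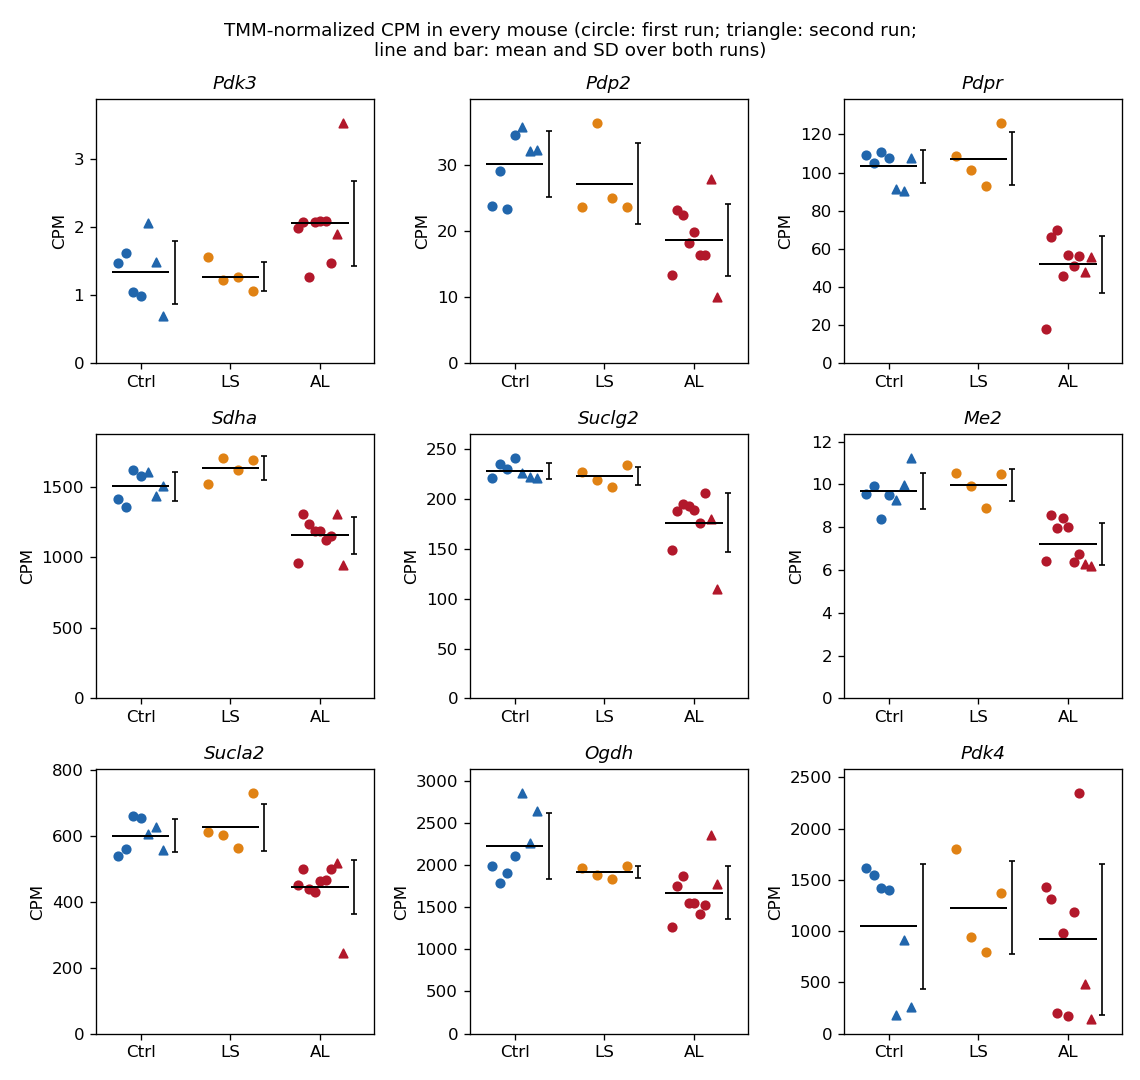
TMM-normalized CPM in every mouse for the 8 genes chosen by the size and p-value of their change and for Pdk4, with the mean and SD of each group. Pdpr, Sdha, Suclg2 and Sucla2 show no overlap between AL and Ctrl mice, and Pdk4 spans 143 to 2344 CPM among AL mice.

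Of the pyruvate carrier and the pyruvate dehydrogenase complex, 3 of 7 genes passed against Ctrl. Mpc1 and Mpc2, which form the carrier, had log2FC of -0.12 ± 0.08 and -0.07 ± 0.10 against Ctrl, and neither passed in any comparison. In the complex, Pdha1 (the E1 alpha subunit, which the kinases phosphorylate) fell by 0.28 ± 0.07, Dlat (the E2 acetyltransferase) by 0.26 ± 0.07 and Dld (the E3 dehydrogenase, shared with the 2-oxoglutarate dehydrogenase complex) by 0.39 ± 0.10 on the log2 scale (edgeR, FDR 0.00911, 0.0143 and 0.00738), each in 9 of 9 AL mice. Pdhb, the beta subunit that pairs with Pdha1, was at -0.02 ± 0.09, and Pdhx, which holds E3 in the complex, at -0.18 ± 0.09, and neither passed. Against LS, Pdha1 and Dld passed (-0.42 ± 0.09 and -0.47 ± 0.11), and Dlat did not (-0.23 ± 0.09, FDR 0.0568). Pdha1 ranged from 742 to 1218 CPM in AL mice, from 1424 to 1597 CPM in LS mice and from 1087 to 1452 CPM in Ctrl mice, so that AL mice were separate from LS mice and overlapped with Ctrl mice.

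In the first part of the cycle 2 of 5 genes passed against Ctrl. Cs, citrate synthase, fell by 0.31 ± 0.08 against Ctrl and 0.43 ± 0.10 against LS on the log2 scale (edgeR, FDR 0.0108 and 0.00455). Idh2, the NADP-dependent isocitrate dehydrogenase of mitochondria, fell by 0.23 ± 0.08 against Ctrl (FDR 0.0396) and had a log2FC of -0.16 ± 0.09 against LS (FDR 0.222). The call of Idh2 was lost without AL6, AL7, AL9, Ctrl1, Ctrl4, Ctrl5 or Ctrl7 (log2FC of -0.24 to -0.14). Of the 3 subunits of the NAD-dependent enzyme, Idh3b passed against LS (-0.32 ± 0.09, FDR 0.0155, but -0.31 and not passed without LS4) and not against Ctrl (-0.20 ± 0.08, FDR 0.0585), while Idh3a (-0.09 ± 0.07) and Idh3g (-0.05 ± 0.08) passed in neither.

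Ogdh, the E1 component of the 2-oxoglutarate dehydrogenase complex, was at 1790, 2105 and 2854 CPM in Ctrl mice, at 1967, 1881, 1839 and 1993 CPM in LS1 to LS4 and at 1272, 1555 and 2354 CPM in AL mice. The 3 Ctrl mice of the second run were the highest of the Ctrl mice and AL8 was the highest AL mouse, and the groups overlapped. Within the model with the run, Ogdh fell by 0.32 ± 0.08 against Ctrl and by 0.30 ± 0.09 against LS on the log2 scale (edgeR, FDR 0.00726 and 0.0297), and the call against LS was lost without AL6, LS1, LS2 or LS4 (-0.31 to -0.28). Dlst, the E2 component, had a log2FC of -0.18 ± 0.07 against Ctrl (FDR 0.0743) and passed against LS (-0.27 ± 0.09, FDR 0.0361), which it no longer did without AL1, AL4, AL5, AL6 or any one LS mouse (-0.29 to -0.24).

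Among the succinyl-CoA ligases, which make ATP or GTP from succinyl-CoA, the nucleotide-specific beta subunits fell and the common alpha subunit did not pass. Sucla2, the ATP-specific subunit (GRCm38 chr14:73525319-73596142, plus strand), was at 538, 606 and 661 CPM in Ctrl mice, at 611, 602, 564 and 729 CPM in LS mice and at 244, 462 and 518 CPM in AL mice. Suclg2, the GTP-specific subunit (GRCm38 chr6:95473009-95718800, minus strand), was at 221, 226 and 241 CPM in Ctrl mice, at 227, 219, 212 and 234 CPM in LS mice and at 110, 188 and 206 CPM in AL mice (109.9 CPM in AL9). In both genes all AL mice were below all other mice, and AL9 was the lowest. The log2FC of Sucla2 was -0.47 ± 0.11 against Ctrl and -0.46 ± 0.13 against LS (edgeR, FDR 0.00593 and 0.0161), and that of Suclg2 -0.42 ± 0.09 and -0.30 ± 0.10 (FDR 0.00236 and 0.0384). The calls against LS were lost for Sucla2 without LS4 (-0.39) and for Suclg2 without AL1, AL6 or any one LS mouse (-0.33 to -0.27). Suclg1, the alpha subunit, had a log2FC of 0.06 ± 0.09 and -0.05 ± 0.11.

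Succinate dehydrogenase, which is also complex II of the respiratory chain, was split in the same way against Ctrl. Against LS all of its subunits had a negative log2FC, the largest in size for its flavoprotein. Sdha, the flavoprotein with the active site (GRCm38 chr13:74322254-74350280, minus strand), was at 1358, 1503 and 1617 CPM in Ctrl mice, at 1518, 1701, 1616 and 1692 CPM in LS1 to LS4 and at 947, 1186 and 1308 CPM in AL mice. Every AL mouse was below every other mouse. It fell by 0.38 ± 0.07 against Ctrl and 0.50 ± 0.09 against LS on the log2 scale (edgeR, FDR 0.00133 and 0.000869). The iron-sulphur subunit Sdhb (-0.03 ± 0.10) and the membrane anchors Sdhc (-0.05 ± 0.08) and Sdhd (-0.08 ± 0.09) did not pass against Ctrl, and against LS their log2FC of -0.11, -0.14 and -0.22 did not pass either. Every AL mouse was nevertheless below every LS mouse for Sdhd. In the first run alone, Sdhc (-0.16, FDR 0.0394) and Sdhd (-0.21, FDR 0.00784) passed as lower against LS (edgeR).

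Of the last steps, Mdh1, the cytosolic malate dehydrogenase, passed against LS (-0.34 ± 0.09, FDR 0.0114 by edgeR) and not against Ctrl (-0.16 ± 0.08, FDR 0.125). Fh1, fumarase, had log2FC of -0.19 ± 0.08 and -0.23 ± 0.09, and Mdh2, the mitochondrial malate dehydrogenase, of 0.04 ± 0.07 and 0.02 ± 0.09, and neither passed. Among the enzymes that link malate, pyruvate and oxaloacetate outside the cycle proper, Me2, a mitochondrial malic enzyme, was at 8.40, 9.56 and 11.2 CPM in Ctrl mice, at 10.54, 9.93, 8.90 and 10.50 CPM in LS mice and at 6.20, 6.77 and 8.55 CPM in AL mice. Its AL values were below all LS values and met the Ctrl values at 8.55 and 8.40 CPM, and it fell by 0.43 ± 0.09 against Ctrl and by 0.45 ± 0.10 against LS (edgeR, FDR 0.00255 and 0.00492). Pcx, pyruvate carboxylase, which refills the cycle with oxaloacetate, fell by 0.30 ± 0.10 against Ctrl (FDR 0.0338) and had a log2FC of -0.23 ± 0.12 against LS (FDR 0.163). The call of Pcx was lost without AL1, AL7, AL9, Ctrl1, Ctrl3, Ctrl4 or Ctrl5 (-0.30 to -0.26). The cytosolic Me1 (-0.23 ± 0.08 and 0.05 ± 0.10) and the mitochondrial Me3 (-0.07 ± 0.06 and -0.15 ± 0.07) did not pass. Between LS and Ctrl mice Me1 had the lowest p of the 35 genes (log2FC -0.27 ± 0.11, unadjusted p = 0.0215, edgeR FDR 0.794).

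Subunits that work in one enzyme were next compared within each mouse, as the log2 ratio of their CPM, in 12 pairs from 4 enzymes. These were the E1 of pyruvate dehydrogenase, the NAD-dependent isocitrate dehydrogenase, the succinyl-CoA ligases and succinate dehydrogenase. Other assemblies of unlike subunits, such as the pyruvate carrier and the phosphatase with Pdpr, were not compared in this way. This comparison was chosen after the values had been seen, and it was made in the first run (7 AL against 4 Ctrl and 4 LS mice) with an exact permutation test that was two-sided and took every one of 330 splits, whose smallest p is 0.00303, adjusted over 24 tests. The ratio of Sucla2 to Suclg1 was 0.60 ± 0.12 in AL (SD, n = 7), 1.09 ± 0.06 in Ctrl and 1.00 ± 0.06 in LS mice, with no overlap (adjusted exact p = 0.0104 in both comparisons). The ratio of Sdha to Sdhb was 1.02 ± 0.21 in AL, 1.38 ± 0.06 in Ctrl and 1.41 ± 0.02 in LS mice (adjusted exact p = 0.0168 and 0.0121), and that of Pdha1 to Pdhb 1.30 ± 0.18, 1.62 ± 0.07 and 1.61 ± 0.02 (adjusted exact p = 0.0121 in both). In all, 7 of 12 ratios differed from Ctrl and 6 of 12 from LS at an adjusted p under 0.05, and they all held Sdha, Pdha1, Sucla2, Suclg2 or Idh3b as the subunit that was lower. No share over other pairs of genes was computed to set beside these counts. Of all single genes, 25.2% passed against Ctrl and 32% against LS in the first run (edgeR). The adjustment over 24 tests does not cover the choice of the pairs after their values were seen, so the counts are descriptions. The pairs among the smaller subunits of succinate dehydrogenase did not pass (adjusted exact p between 0.0984 and 0.391).

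The means of these ratios were lower in AL mice of the second run too. The mice of that run were too few for an exact p under 0.05. For Sdha to Sdhb and for Pdha1 to Pdhb its AL and Ctrl mice overlapped, with AL9 above Ctrl7. The AL mean minus the Ctrl mean was -0.65 for Sucla2 to Suclg1 and -0.57 for Suclg2 to Suclg1. It was -0.33 for Sdha to Sdhb and -0.11 for Pdha1 to Pdhb. In the same order, leaving out AL1 gave -0.45, -0.36, -0.29 and -0.27 in the first run against Ctrl, beside -0.49, -0.44, -0.36 and -0.33 with it. Transcript length moved with the result. In the ratios that passed, the lower subunit also had the longer transcript, except in Sdha to Sdhc (2900 and 3171 bases). Across the 35 genes the log2FC against Ctrl and the length of the principal transcript had a Spearman rho of -0.59 (n = 35), and across 14291 tested genes of -0.26. The genes share their libraries, so these are descriptions. With an offset for length in each mouse, an alternative added after seeing the data, 13 genes passed as lower and 1 as higher against Ctrl, and the pairs came closer without meeting, with log2FC of -0.40 for Sdha beside -0.12 for Sdhb, -0.49 for Sucla2 beside 0.01 for Suclg1 and -0.30 for Pdha1 beside -0.08 for Pdhb. Of all genes, 21.2% passed against Ctrl in either direction with that offset.

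**Figure D4:**
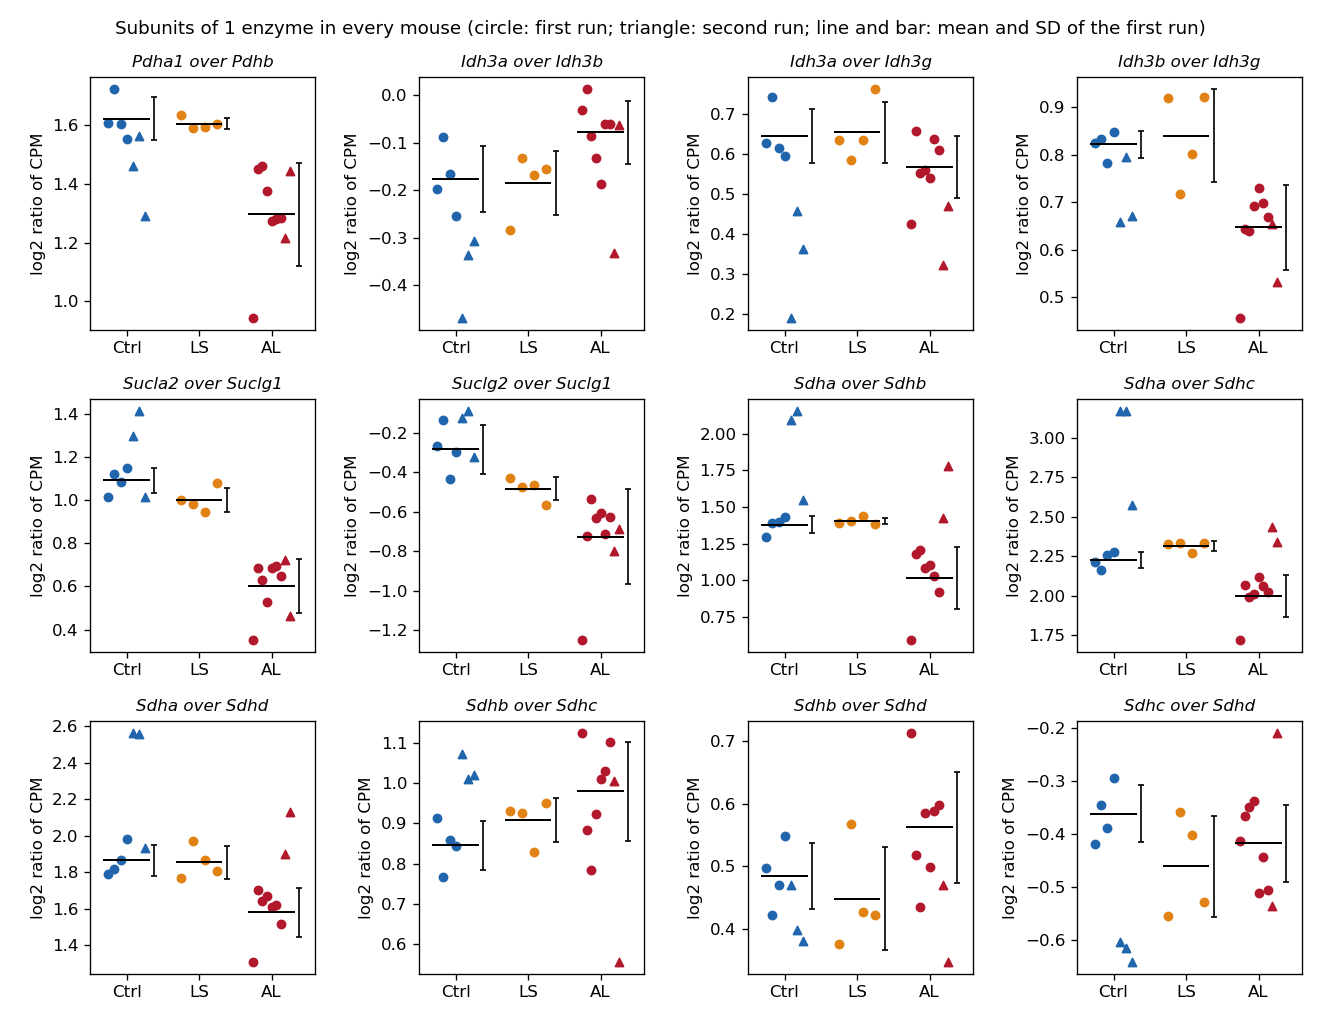
Within-mouse log2 ratio of the CPM of 2 subunits of one enzyme, in the 12 pairs compared, for every mouse, with the mean and SD of the first run. The AL circles lie below all Ctrl circles in the 7 panels that hold Sdha, Pdha1, Sucla2 or Suclg2, or Idh3b over Idh3g, while the 3 panels of Sdhb, Sdhc and Sdhd overlap.

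The same comparison was made within each sequencing run. In the first run, 30 of 35 genes were lower in AL than in Ctrl mice, 16 of them passed as lower and 0 as higher (edgeR, 20 genes with an unadjusted p under 0.05, beside 25.2% of all genes passing in either direction), with a median log2FC of -0.18. Against LS, whose mice were all in the first run, 20 genes passed as lower and 1 as higher, beside 4634 of the 14477 genes tested in either direction. In the second run the median was again -0.18 and 30 of 35 genes were lower, but 0 passed (3 with an unadjusted p under 0.05), beside 0.145% of all genes. The AL mice of that run differed from each other. Relative to the Ctrl mean of the run, the median gene was at -0.53 in AL9 and 33 genes were lower, while in AL8 the median was 0.06 and 14 genes were lower, yet Pdpr was lower by 1.01 on the log2 scale in AL8 also. The 7 AL mice of the first run lay between -0.27 and -0.11. A test of the difference between runs in the effect of AL found 0 genes at an FDR under 0.05 (edgeR). Of all genes tested, 1.49% passed it. In the pathway 1 gene, Pdk1, had an unadjusted p under 0.05, with log2FC of -0.08 in the first and -0.40 in the second run. Without AL8 the second run keeps AL9 as its only AL mouse, so no count of that test is given there. In the comparison with Ctrl over both runs, Pdhx, Idh3b, Dlst, Fh1 and Mdh1 passed as lower in addition without AL8 (-0.29 to -0.24). Without AL1 and AL9, which stood apart in other cells' markers, 10 genes passed as lower against Ctrl and 11 against LS, with medians of -0.11 and -0.17. Of all genes, 21.5% and 23.5% then passed in either direction. The calls lost in that setting were those of Dlat (-0.20), Idh2 (-0.15), Pcx (-0.23) and Pdk3 (0.51) against Ctrl and of Ogdh and Dlst (both -0.22) against LS. Sucla2 and Suclg2 still passed against Ctrl at -0.33 and -0.28, beside -0.47 and -0.42 with all mice.

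The sum of the cardiomyocyte marker genes was lower with the pathway in the first run, although only 3 of the 12 passed against Ctrl. The summed level of the 12 markers was 62593 to 77352 CPM in the AL mice of the first run, 81261 to 89935 CPM in Ctrl and 84394.5 to 94872 CPM in LS mice, without overlap. In the second run it was 79114 CPM in AL9, 100002 CPM in AL8 and 96032 to 103254 CPM in Ctrl mice. Myh6 alone made up a large part of the sum. In the first run it was at 13748 to 26185 CPM in AL mice and at 23892 to 28853 CPM in Ctrl mice. Of the 12 markers 3 passed as lower against Ctrl, 0 as higher, and 4 passed as lower against LS. Those lower against Ctrl were Myh6 (-0.33 ± 0.10), the fast myosin of the adult ventricle, and Atp2a2 and Pln (-0.42 ± 0.09 and -0.44 ± 0.12), the calcium pump of the sarcoplasmic reticulum and its inhibitor, whereas the other 9 had log2FC between -0.23 (Mybpc3) and 0.21 (Tnnc1) and did not pass. Against LS, Mybpc3 passed as well (-0.40 ± 0.13). The covariate fitted was the mean log2 CPM of the 12 markers, not their sum. With it, 4 pathway genes (Pdpr, Suclg2, Sdha and Me2) passed as lower against Ctrl and 0 against LS, with a median log2FC of -0.06 and -0.02. Under that fit 10.9% and 1.61% of all genes passed in either direction, beside 26.2% and 23.4% without the covariate. In the first run the summed markers separate AL mice fully from the others, so the markers and the group cannot be told apart there.

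**Figure D5:**
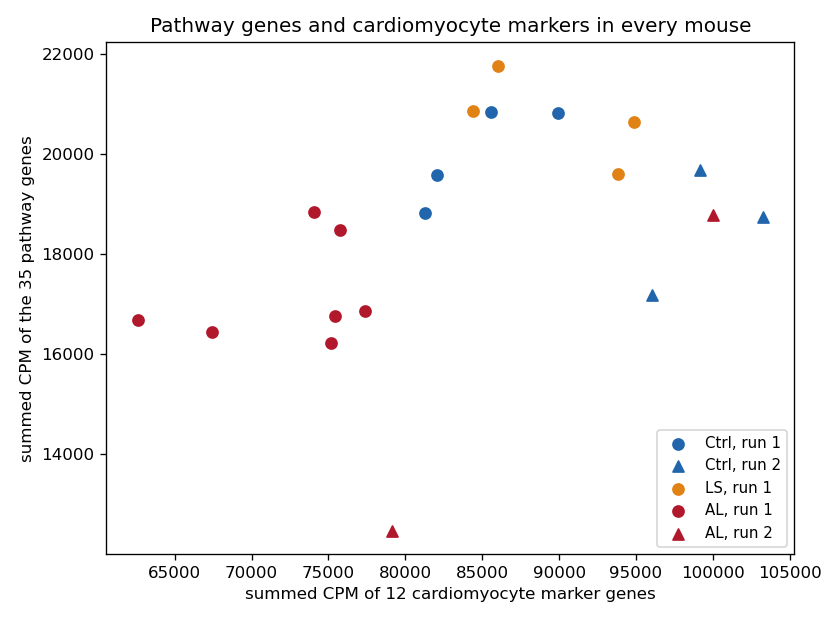
Summed CPM of the 35 pathway genes (vertical axis) against the summed CPM of 12 cardiomyocyte marker genes (horizontal axis) in each of the 20 mice, coloured by group, circles for the first run and triangles for the second. The 7 AL mice of the first run reach at most 77352 CPM on the horizontal axis and 18838 CPM on the vertical axis, and AL9 lies lowest at 12467 CPM.

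The number of genes that passed was much lower with another treatment of the sequencing run. With counts adjusted by ComBat-seq, the method the study used, in place of the run in the model, 1 gene, Pdpr, passed against Ctrl and likewise 1 against LS, with medians of -0.21 and -0.28 that were as low as with the run in the model. The number of all genes that passed against Ctrl was then 796, beside 1556 higher and 2236 lower with the run in the model. With ComBat-seq 5.5% of all genes passed against Ctrl and 4.48% against LS, beside 2.86% of the pathway genes in each. With the run ignored, 10 pathway genes passed as lower in each comparison with AL mice. Of all genes, 15.1% then passed against Ctrl and 16.4% against LS in either direction.

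Genes around the pathway were read from lists chosen in the same way. The list of 8 genes for lipoylation, the cofactor attachment that both 2-oxoacid dehydrogenases need, and for the assembly of succinate dehydrogenase had 0 genes that passed against Ctrl by edgeR (2 with an unadjusted p under 0.05) and 1, lower, against LS.

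Of 16 transcriptional regulators of oxidative metabolism, 6 passed as lower and 0 as higher against Ctrl, and 5 and 0 against LS. Ppara, the nuclear receptor that drives fatty acid oxidation and the Pdk4 gene, was at 31.3, 47.7 and 66.2 CPM in Ctrl mice, at 57.1, 62.9, 56.9 and 44.1 CPM in LS mice and at 5.26, 21.0 and 28.2 CPM in AL mice, with AL1 lowest and no overlap. Its log2FC was -1.23 ± 0.22 against Ctrl and -1.30 ± 0.26 against LS (edgeR, FDR 0.000937 and 0.00196). Ppargc1a, the coactivator of mitochondrial biogenesis, fell by 0.51 ± 0.14 against Ctrl and by 0.93 ± 0.16 against LS (FDR 0.0119 and 0.000709), with 56.2 to 145 CPM in AL mice, 106 to 180 CPM in Ctrl mice, which overlapped them, and 151 to 243 CPM in LS mice, which did not. Esrra, the estrogen-related receptor alpha that acts with it on genes of the cycle, had log2FC of 0.00 ± 0.08 and -0.03 ± 0.10.

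Neighbouring oxidative pathways gave other counts. Of 25 genes of fatty acid oxidation, 7 passed as lower and 0 as higher against Ctrl, with a median log2FC of -0.19, and 5 and 0 against LS with a median of -0.18. The list of nuclear genes of the respiratory chain and ATP synthase had 75 entries for 72 symbols, since Atp5a1, Ndufs3 and Uqcrc1 each stood under 2 identifiers, between which reads may have been split. Of these entries 4 passed as lower and 11 as higher against Ctrl, with a median of 0.12, and 4 and 0 against LS with a median of -0.02, and the lower entries in both were Ndufs1, Uqcrc2 and both of Atp5a1, named after their values were seen. The difference between these lists was not tested.

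The promoters of the pathway genes were searched for 3 motifs of regulators of mitochondrial genes. RefSeq windows of 300 bases (GRCm38.p6, 250 before and 50 after the start of the gene) were found for 31 of the 35 genes, and both strands were searched. The element of estrogen-related receptors, TNAAGGTCA, was in 1 of 31 (3.23%, Sdhd, after the start), beside 1.43% of 27025 genes with such windows. Its core AAGGTCA, which lies within it, was in 2 of 31 (6.45%, Sdhd and Ogdh, where it spans the start), beside 5.38%. The NRF1 motif GCGCATGCG was in 1 of 31 (3.23%), beside 1.95%. The shares in the pathway were thus those of 1 or 2 genes. The NRF1 match lies 36 to 28 bases before 1 RefSeq start of Ogdh and 15 to 7 bases before another, within the gene as GENCODE places it, and is shown with its flanks (GRCm38.p6 chr11:6292533-6292561, plus strand) and the motif in capitals.
Ogdh: taggtgttgtGCGCATGCGtaactcaact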

How the data were processed

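The data are bulk RNA sequencing of heart apex samples from 9 AL, 4 LS and 7 Ctrl mice. The authors made stranded libraries from polyadenylated RNA, aligned paired-end reads to GRCm38 with STAR and quantified genes with Salmon in nf-core/rnaseq. The authors deposited estimated counts of 25308 genes, not normalized and not adjusted for the sequencing run, and 14.2% of the values were not whole numbers. They were rounded here. Groups, mouse numbers and the run came from the labels, and every sample column was used. Lengths and positions came from GENCODE M21 (GRCm38), which may differ in detail from the authors' gene models.

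Genes with low counts were removed (filterByExpr, edgeR 4.0.16, with a minimum count of 10 and the 3 groups given), libraries were scaled by TMM, and the 3 groups were fitted together with the run as a term (glmQLFit, glmQLFTest, R 4.3.3). P-values are two-sided, FDR is Benjamini-Hochberg over all 14477 genes, and the SE is the log2FC divided by the root of the F statistic. A gene passed at an FDR under 0.05 and was called with an absolute log2FC of at least 0.58. Where a call is said to be lost or gained, only the FDR threshold is meant. The study used ComBat-seq for the run. A model term was used here, and ComBat-seq (sva 3.50.0) was an alternative, as were DESeq2 1.42.0, other filters and scaling, each mouse left out, marker covariates, a block for the replicate number, a fit to only the first run and one that ignored the run. An offset for transcript length, AL1 and AL9 left out together and the subunit ratios were added after seeing the data. Levels between genes are CPM per kilobase of the principal transcript. The fit was tested on simulated counts.

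The 35 genes and all lists were chosen with earlier results of these data known, so no test over a list was made. All 35 are named. Values by mouse are given for genes that were called in any comparison, filled to 8 by the lowest p against Ctrl, and Pdk4 was added after its spread was seen. From the other lists, genes called against Ctrl (at most 6 a list) and Ldha, Ldhb, Ppargc1a, Esrra and Ppara are named, and the lower genes of the last section and the cardiomyocyte genes were picked after their values were seen. One gene of these lists is not reported here. P-values measure the spread between single mice. Total counts of 7867642 to 62668146 per mouse left the lowest count of a pathway gene at 9.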

Additional observations from a re-analysis of the deposited data

Results flagged for a closer look

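Dixon's test at the 95% level marked the highest or lowest mouse in 22 of 105 tests (35 genes in 3 groups). Chance alone marks about 1 in 20 groups, or 5.25 of 105, and the genes share their mice, so these are not independent.

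The lowest AL mouse was AL9 in 12 genes. Its CPM was 230.4 for Mpc1 (the next AL mouse was at 360.0), 273 for Pdhb (next 432), 188 for Dlat (next 247), 212 for Dld (next 376) and 359 for Idh3a (next 465.9). It was 375 for Idh3b (next 491), 244 for Sucla2 (next 430), 177 for Suclg1 (next 283), 275 for Sdhb (next 486) and 216 for Sdhd (next 351), and for the last steps of the cycle 212 for Fh1 (next 276) and 1427 for Mdh1 (next 1876). AL9 was also the highest AL mouse for Pdk3, at 3.53 CPM (next 2.09). Its summed fibroblast markers were the highest of the AL mice, at 4705 CPM, and their part in these values was not tested.

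AL8 was the highest AL mouse in 3 genes, at 345 CPM for Pdk2 (next 274), 1940.5 for Idh2 (next 1466) and 604 for Dlst (next 494). AL1 was the lowest for Pdpr, at 18.2 CPM (next 46.04).

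Among the 4 LS mice, LS4 was highest for Pdhx at 144 CPM (next 119) and for Idh3b at 686 CPM (next 645). LS2 was highest for Pdp2 at 36.3 CPM (next 25.1) and for Pcx at 36.2 CPM (next 29.3), and LS1 was lowest for Sdhc at 303 CPM (next 335). No Ctrl mouse was marked.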

How the results depend on the processing

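The counts, medians and log2FC of the 35 genes were recomputed under 36 alternatives, 2 of them added after seeing the data (35 for Pdk3, and 24 for the test between runs). No value that had passed the test changed its sign. Of the comparisons of single genes, 3593 kept their side of the threshold, 133 lost the call and 51 gained it. With ComBat-seq 1 gene was lower and 0 higher against Ctrl, and 1 lower against LS, beside 5.5% and 4.48% of all genes. With cardiomyocyte markers as a covariate 4 were lower and 0 higher against Ctrl (median -0.059), and 0 lower against LS (median -0.0211). Of all genes, 10.9% and 1.61% passed with that covariate. The first run alone gave 20 lower and 1 higher against LS and 0 higher against Ctrl, adipocyte markers as a covariate gave 8 lower against LS, and DESeq2 gave 1 higher against LS. In the same order, 32%, 14.4% and 28.8% of all genes passed against LS in either direction. The one higher gene against Ctrl, Pdk3, was lost (0 higher) with at least 10 counts in every mouse, where it was not tested, without the run term, with the replicate block, and without AL1 and AL9.

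Leaving out 1 mouse gave 11 (without AL9) to 18 (without AL8) genes lower and 0 to 1 higher against Ctrl, with medians of -0.25 to -0.12, and 8 (without LS4) to 16 (without AL8) lower and 0 higher against LS, with medians of -0.26 to -0.19. Of all genes, 24.5% passed against Ctrl without AL9 and 28.4% without AL8. Against LS, 16.2% of all genes passed without LS4 and 26.2% without AL8. Between LS and Ctrl 0 passed in either direction and the median was 0.03 to 0.10. The test between runs gave 0 genes under every alternative that kept both AL8 and AL9, beside 1.49% of all genes with all mice. Without AL8 or without AL9 it rests on 1 AL mouse of the second run.

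The labels number the mice of each group, but mice of the same number did not deviate together (4 of 15 pairs with a correlation over 0.1, range -0.23 to 0.29). With the replicate number as a block, 9 genes were lower against Ctrl and 12 against LS, beside 14.9% and 21.4% of all genes in either direction. With only 4 LS mice, all of the first run, small differences from LS could not be told. The same holds for the second run with its 2 AL mice, and Pdk3 is limited by its low counts.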

Other observations

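Of 24 further enzymes and carriers around pyruvate and the cycle, 2 passed as higher and 7 as lower against Ctrl. The 2 that rose were Slc16a3, a monocarboxylate transporter known for lactate export (log2FC 1.098 ± 0.37, edgeR FDR 0.0348, means of 2.92 and 1.21 CPM), and Pck2, the mitochondrial phosphoenolpyruvate carboxykinase (0.62 ± 0.16, FDR 0.0101). Against LS, Pck2 rose by 0.86 ± 0.19 on the log2 scale (edgeR FDR 0.00394). Ldha, the lactate dehydrogenase subunit of muscle type, had a log2FC of 0.23 ± 0.09 against Ctrl, and Ldhb, the heart type, of -0.19 ± 0.08 (FDR 0.0638 and 0.0880), and neither passed. Among those that fell against Ctrl by less than the fold threshold were Aco1, Acat1, Glud1, Ogdhl, Slc25a12 and Slc25a13, with log2FC between -0.51 and -0.20.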
